A study of Mus musculus with 59 samples.

Results

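The forestomach is where a compound given by gavage first meets the mouse, and this comparison set the forestomachs of 5 mice given the highest dose of benzo(b)fluoranthene (BbF) against those of 5 mice given olive oil alone. The members were chosen by their source labels, D3_forestomach and D0_forestomach, and made up 10 of the 59 arrays of the series. All mice were male MutaTMMouse, a transgenic strain, of about 16 weeks of age, dosed once a day for 28 days with tissue taken 72 h after the last dose. The high-dose group (mice 16 to 20) received 100 mg/kg-bw/day and the vehicle group (mice 1 to 5) received olive oil only. The title and the treatment protocol name benzo(b)fluoranthene, whereas one label field names benz(a)anthracene. Forestomachs of mice given 25 mg/kg-bw/day (mice 6 to 10) and 50 mg/kg-bw/day (mice 11 to 15) entered the same fit, and lungs of the same study served for comparison. RNA came from random sections of tissue, so each array holds a mixture of epithelium, muscle, vessels and immune cells. In such bulk samples fewer cells of a type and less RNA per cell cannot be told apart.

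The forestomach of the mouse is a non-glandular pouch lined by stratified squamous epithelium. Basal keratinocytes divide and express keratins 5 and 14, then move up, switch to keratins 4 and 13 and form a cornified layer of cross-linked proteins such as involucrin, loricrin and the small proline-rich proteins. BbF is a polycyclic aromatic hydrocarbon. Compounds of this class bind the aryl hydrocarbon receptor (AhR), which turns on Cyp1a1 and related genes, and their metabolites can damage DNA and engage p53. The circadian clock is a feedback loop: ARNTL and CLOCK bind E-boxes and drive the Per, Cry and Nr1d genes as well as output factors such as Dbp and Tef, PER and CRY proteins restrain ARNTL and CLOCK, and NR1D1 and NR1D2 repress Arntl and Nfil3. Mice were kept in an even light and dark cycle. The time of day at which each mouse was killed is not given in the sources used here.

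Each value is a log2 ratio of the sample (Cy5) to a common reference RNA (Cy3), so levels of different genes are not compared. Between 39.6% and 52.0% of probes were well above background in the Cy5 channel of the 20 forestomach arrays, whose pairwise correlation ranged from 0.743 to 0.972. Keratin markers matched the tissue label. Krt5 ranged from 3.40 to 3.93 and Krt13 from 4.76 to 5.54 over the 20 arrays, whereas the lung marker Sftpc stayed between -0.27 and 0.69 against 6.84 to 7.72 in lung. Not every marker was as clean. The basal gene Trp63 did not separate the tissues (0.18 to 0.94 against 0.16 to 1.06 in lung). The airway gene Scgb1a1 was 4.30 to 5.46 in forestomach against 7.84 to 8.41 in lung. Forestomach arrays differed in how much neighbouring tissue they held. Gkn3 and Pgc, genes of the glandular stomach, were low in vehicle mice 2 and 5 and in high-dose mouse 20: Gkn3 was 0.23, 0.44 and 0.08 there against 3.20 to 5.25 in the other 7 arrays. The adipocyte gene Cfd stood at 7.29 and 7.63 in vehicle mice 3 and 5 and at 5.58 in high-dose mouse 20, against at most 1.28 in the other 7. Neither set of arrays was confined to one group. Among lung arrays, that of low-dose mouse 6 carried Krt13 at 4.17 where the others had at most -0.90.

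At the high dose 38 genes were differentially expressed (DEGs), meaning an adjusted P (false discovery rate, FDR) of at most 0.05 and a fold change of at least 1.5 by limma on at least 1 probe, which is 0.102% of the 37163 genes and transcripts measured. Of these 35 were upregulated (0.0942%) and 3 were downregulated (0.00807%). No gene passed at the low dose, where 2574 probes had an unadjusted P under 0.05, nor at the medium dose, where 3161 did. At the high dose 4847 probes did. All 38 DEGs changed in the same direction on each of the 3 slides. They were picked by their change on these same arrays, so this adds no separate support. A gene whose groups do not overlap can do no other. Without the arrays rich in Cfd (mice 3, 5 and 20) 6 genes passed, 5 of them among the 38, and the symbols among these 5 were Ces2f, Gm21944, Icosl and Nr1d2. Without those low in Gkn3 (mice 2, 5 and 20) 6 of the 38 passed, with the symbols Ces2f, Gm21944, Icosl and Mmrn2. The other DEGs lost their calls in these smaller fits, Dbp included (2.77, adjusted P = 0.11, and 2.65, adjusted P = 0.12). Both sets of arrays were left out after the data had been seen. The 31 DEGs with a symbol included clock genes, epithelial defense genes, macrophage genes and a group of less related genes. Where a gene missed these thresholds its values are given with an unadjusted P. At that level 4.78% of all genes were higher and 4.18% lower. In 1.33% of genes every high-dose mouse was above every vehicle mouse, and in 1.15% every one was below. Counts of list members given below are to be set against these shares. The median change over all genes was -0.0011 on the log2 scale.

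Among the DEGs were 4 clock genes, and their changes ran in the directions of the loop's opposite arms, with Arntl down and Dbp, Nr1d2 and Tef up. The hour at which each mouse was killed was not given, so its part in the changes of clock genes could not be tested. The stretches upstream of the start sites of Tef, Per3 and Arntl are shown as examples, chosen because they hold letters that match search patterns for clock factors. They are RefSeq sequences (GRCm38.p6), 250 bases before the start site, read 5′ to 3′ along the gene. Capitals mark an E-box (CACGTG, the site of ARNTL and CLOCK) or a D-box (TTANGTAA, the site of DBP, TEF, HLF and NFIL3). They also mark TNGGTCA, a loose form of the core of a ROR element, the site of ROR and NR1D proteins. Each was searched on either strand. The N admits any base, and the ROR marks shown have T or C there. Binding at the marked letters was not tested. No overlap between motifs was found in these stretches. For Tef and Arntl, each listed with 2 start sites, 1 stretch is shown. The other Tef stretch held an E-box and no ROR core.
Tef, chr15:81811164-81811413, plus strand: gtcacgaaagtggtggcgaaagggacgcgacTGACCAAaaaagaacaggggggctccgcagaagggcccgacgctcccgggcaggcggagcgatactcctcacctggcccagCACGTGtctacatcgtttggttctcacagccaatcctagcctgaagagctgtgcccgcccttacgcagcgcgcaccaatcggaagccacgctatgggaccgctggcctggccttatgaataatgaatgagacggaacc
Per3, chr4:151044666-151044915, minus strand: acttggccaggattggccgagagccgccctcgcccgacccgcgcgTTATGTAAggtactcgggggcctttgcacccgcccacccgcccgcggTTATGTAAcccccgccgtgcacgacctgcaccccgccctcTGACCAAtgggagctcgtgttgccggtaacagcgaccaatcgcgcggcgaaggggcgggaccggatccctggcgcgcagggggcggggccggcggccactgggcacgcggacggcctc
Arntl, chr7:113207215-113207464, plus strand: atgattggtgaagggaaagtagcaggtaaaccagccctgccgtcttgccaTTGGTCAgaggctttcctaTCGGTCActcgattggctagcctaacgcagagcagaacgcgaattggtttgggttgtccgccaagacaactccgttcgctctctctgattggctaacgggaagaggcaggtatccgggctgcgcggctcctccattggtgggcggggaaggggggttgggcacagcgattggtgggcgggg
Over 32851 upstream stretches of this length, 6.02% held the E-box, 2.06% the D-box and 9.19% the ROR core. Tef held an E-box and a ROR core, Per3 held D-boxes and a ROR core, and Arntl held ROR cores. Of the 14 clock genes with a listed start site 8 held at least 1 of the motifs, counted over all start sites of a gene. The share of all genes by that count was not computed, so nothing is read from it. The others of the 8 were Ciart, Per1 and Cry1 with an E-box and Cry2 and Nfil3 with a ROR core, and Dbp, Nr1d1, Nr1d2, Npas2, Clock and Hlf held none of these letters within this window.

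Dbp, a transcription factor that binds D-boxes and is a direct output of the clock, had the largest increase. The 5 vehicle mice had log2 ratios of -1.96, -2.49, -2.15, -2.18 and -1.62, and the high-dose mice 16 to 20 had -0.67, 1.04, 1.18, 0.66 and 0.46. The groups did not overlap, and mouse 16 was the lowest of the treated mice. The change was 2.62 ± 0.38 (log2, SE), a 6.13-fold increase (limma adjusted P = 0.0067), and another probe of Dbp gave 2.80. At 25 and 50 mg/kg-bw/day the change was 1.14 and 1.83, below the thresholds.

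Nr1d2, a nuclear receptor that represses Arntl, had -0.52, -1.08, -0.37, -1.03 and -0.11 in vehicle mice and 0.15, 0.89, 0.99, 0.54 and 0.70 in high-dose mice, again without overlap. It was upregulated 2.42-fold (change 1.28 ± 0.19, adjusted P = 0.0077). Tef, a relative of Dbp, was upregulated 2.21-fold (1.14 ± 0.21, adjusted P = 0.034), from -0.72 to -0.12 in vehicle mice and from -0.03 to 0.91 in high-dose mice. The call of Tef was lost in 8 of the 10 omissions of 1 mouse, with the highest adjusted P of 0.13 without mouse 17. Arntl, which encodes the activator BMAL1, had 0.70, 0.80, 0.68, 0.66 and 0.77 in vehicle mice and 0.28, -0.35, -0.41, -0.24 and -0.30 in high-dose mice. Its vehicle values were tightly grouped and every high-dose mouse lay below them. It was downregulated 1.90-fold (-0.93 ± 0.13, adjusted P = 0.0065). With median centring in place of loess its change was -0.61 and no longer passed (adjusted P = 0.10). The lower doses gave -0.21 and -0.50 for Arntl.

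Of the 10 clock repressors measured, 1 was a DEG and 7 were higher at an unadjusted P under 0.05, and the median change was 0.44. Over all genes the shares were 0.102% and 4.78%. Nr1d1, the sister of Nr1d2, differed by 1.05 (unadjusted P = 0.0014, adjusted P = 0.21), from -0.30 to 0.72 in vehicle mice and from 0.36 to 1.5 in high-dose mice. Per1 and the cryptochrome Cry2 differed by 0.67 and 0.48, and the basic helix-loop-helix repressor Bhlhe40 by 0.51. Per2 and Per3 differed by 0.40 each. Neither was well above background on any vehicle array, and the bounds on their difference were at least 1.28-fold for Per2 and at least 1.29-fold for Per3. Cry1 differed by 0.02. Among the 6 activators, 2 were lower at an unadjusted P under 0.05. Clock, the partner of ARNTL, was 0.57 lower (unadjusted P = 0.0077) and Npas2 differed by -0.09. Of the 7 output genes 2 were DEGs, Dbp and Tef, against 0.102% of all genes. Hlf, the other relative of Dbp, was 0.61 higher (unadjusted P = 0.011), and Nfil3, a repressor at the same D-boxes, was 0.90 lower with every high-dose mouse below every vehicle mouse (unadjusted P = 2e-04, adjusted P = 0.099).

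**Figure D1:**
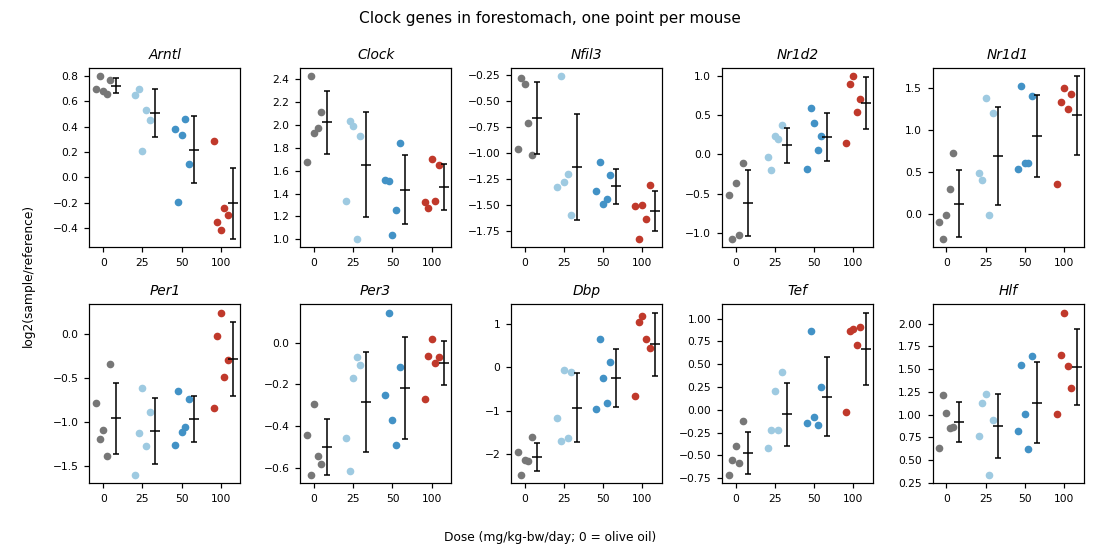
Log2 ratios (sample over reference, vertical axis) of 10 clock genes in forestomach by dose (horizontal axis, mg/kg-bw/day), one point per mouse, with the group mean and SD as a bar to the right. Arntl, Clock and Nfil3 sit lower and Nr1d2, Dbp and Tef higher in the 5 mice at 100 mg/kg-bw/day than in the 5 vehicle mice, and mouse 16 has the lowest Dbp value (-0.67) of the treated 5.

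The epithelium's own structural genes showed small differences. None of the 11 basal keratinocyte genes, 15 suprabasal and stress keratins, 50 cornified envelope genes or 23 desmosome and tight junction genes was a DEG, from which nothing is read at a share of 0.102% over all genes, and their medians were 0.13, -0.08, -0.10 and 0.05. Krt5 and Krt14, the keratins of dividing basal cells, differed by -0.07 and -0.13, and Krt13 and Krt4, those of the suprabasal layers, by -0.08 and -0.32. All 4 of these small differences turned positive with median centring, at 0.28, 0.19, 0.27 and 0.01. The basal gene Itgb4, an integrin of hemidesmosomes, was 0.54 higher (unadjusted P = 0.014).

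In the cornified envelope list 12 genes were lower and 3 higher at an unadjusted P under 0.05. Ivl, which encodes the envelope scaffold involucrin, had 1.97, 2.61, 2.17, 2.31 and 1.97 in vehicle mice and 1.19, 1.33, 1.49, 1.38 and 1.04 in high-dose mice. The groups did not overlap and the difference was -0.92 ± 0.27 (unadjusted P = 0.0026, adjusted P = 0.25). Lce1a1, a late envelope gene, was 0.32 lower, a difference that became 0.04 with median centring, and the list's median likewise went from -0.10 to 0.19. Sprr2k, a small proline-rich protein gene, went the other way. It had 1.31, 1.88, 1.78, 1.91 and 1.44 in vehicle mice and 2.78, 3.25, 3.34, 2.71 and 3.75 in high-dose mice, a difference of 1.5 (unadjusted P = 0.00069, adjusted P = 0.17). The Sprr2 genes are near-identical copies, so probes for them may share signal. Tchh, a structural protein of hair and keratinized epithelium, was 0.69 higher with no overlap. The keratins Krt84 and Krt23 differed by 0.93 and -0.34, and Krt23 did not overlap between groups, yet its difference was 0.0035 with median centring.

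Genes by which the epithelium resists microbes included 3 DEGs of 22, all upregulated, and 7 of the 22 were higher at an unadjusted P under 0.05. The shares over all genes were 0.102% and 4.78%. The median change was 0.38. Defb14, a beta-defensin secreted by keratinocytes, had 3.77, 4.19, 3.98, 3.68 and 2.94 in vehicle mice and 4.59, 5.20, 4.52, 4.83 and 5.57 in high-dose mice. It was upregulated 2.34-fold without overlap (1.23 ± 0.21, adjusted P = 0.022), and its lower-dose changes were 0.42 and 0.81. Its call was lost in 4 of 10 omissions, with adjusted P = 0.095 without mouse 17. Another beta-defensin, Defb3, was not well above background on any vehicle array and was on all 5 high-dose arrays. Its change was 1.05 ± 0.15 (adjusted P = 0.0065), and against the background limit it was at least 1.75-fold higher. S100a7a, the mouse gene of the psoriasin family of antimicrobial calcium-binding proteins, was upregulated 2.08-fold (1.06 ± 0.16, adjusted P = 0.0072), with high-dose values from 0.75 to 1.63 above all vehicle values, which reached 0.48. It was well above background on 2 vehicle arrays and all 5 high-dose arrays, so the vehicle mean rests mostly on dim spots. With median centring its change was 0.70 and did not pass (adjusted P = 0.11). Lyz2, a lysozyme that macrophages also make, was 0.85 higher (unadjusted P = 0.0055).

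Skint3, one of the Skint family of epithelial immunoglobulin-like proteins, was either near 0 or high in each mouse. Vehicle mice had 0.02, 5.95, 4.80, 5.08 and 5.25, and high-dose mice had 4.19, 0.12, 0.12, 0.23 and 0.28. Of the vehicle mice 4 were high and 1 was low, and 1 high-dose mouse was high and 4 were low. The difference was -3.23 (unadjusted P = 0.0034, adjusted P = 0.27), the largest in size in the Skint list, and a dimmer probe of the gene gave -0.33. Among mice at the lower doses only mouse 9 was high, at 3.49. Skint5 was 0.54 lower (unadjusted P = 0.0028). None of the 10 Skint genes was a DEG, from which nothing is read at a share of 0.102% over all genes.

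Among transcription factors of the epithelium, 2 DEGs stood outside the epithelial lists. Trp73, a p53 relative active in epithelial differentiation, was upregulated 1.69-fold on one probe (0.75 ± 0.13, adjusted P = 0.020), from 0.43 to 0.78 in vehicle mice and from 1.12 to 1.42 in high-dose mice. Its brightest probe gave -0.18, so its probes disagreed, and the call was lost in 6 of 10 omissions (adjusted P = 0.078 without mouse 2) and with median centring (adjusted P = 0.055). Ascl2, a basic helix-loop-helix factor, was upregulated 1.83-fold (0.87 ± 0.17, adjusted P = 0.041). Its call was lost with any 1 of the 10 mice left out (adjusted P = 0.14 without mouse 2).

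**Figure D2:**
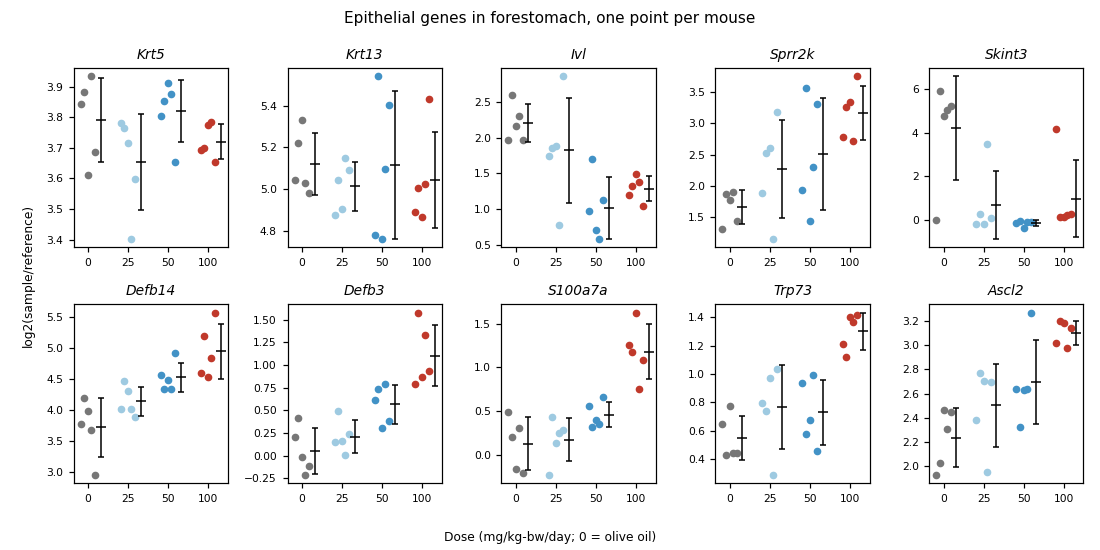
Log2 ratios (vertical axis) of 10 epithelial genes in forestomach by dose (horizontal axis, mg/kg-bw/day), one point per mouse, mean and SD to the right. Krt5 and Krt13 overlap between vehicle and high dose, Defb14, Defb3 and S100a7a lie higher in all 5 high-dose mice, and Skint3 is split between values near 0 and values above 3 within groups.

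Macrophage genes were higher as a group. Of 19 measured, 1 was a DEG, 12 were higher and none lower at an unadjusted P under 0.05, and 7 did not overlap between groups. Over all genes 0.102% were DEGs, 4.78% were higher and 4.18% lower at that level, and 1.33% lay above all vehicle mice without overlap. The median change was 0.53, and the mean of the list in each mouse was 0.11 to 0.61 in vehicle mice and 0.68 to 1.17 in high-dose mice. The largest list median was that of the 13 glandular stomach genes, 0.67 with 12 of them higher and none at an unadjusted P under 0.05, and their list mean was 0.70 to 5.49 in vehicle mice and 0.44 to 5.31 in high-dose mice. Without mice 2, 5 and 20 that median was -0.02, while those of the macrophage, antimicrobial and clock repressor lists were 0.445, 0.394 and 0.500. Clec4n, which encodes the fungal-sensing lectin dectin-2 of macrophages, had 1.26, 0.38, 0.77, 0.66 and 0.79 in vehicle mice and 2.14, 1.96, 1.84, 2.41 and 2.43 in high-dose mice. It was upregulated 2.60-fold without overlap (1.38 ± 0.23, adjusted P = 0.020). Its call was lost in 5 of the 10 omissions of 1 mouse, with an adjusted P of at most 0.078, without mouse 2. Ms4a7, a macrophage membrane protein, was 1.10 higher (unadjusted P = 1.1e-04, adjusted P = 0.073). Aif1, a cytoskeletal protein of macrophages, was 0.92 higher. Further DEGs, Icosl and Ms4a4d, are expressed in immune cells. Icosl, the ligand of the T cell costimulator ICOS, was upregulated 1.69-fold with 1 high-dose mouse inside the vehicle range (0.75 ± 0.12, adjusted P = 0.00998). Ms4a4d, a relative of Ms4a7, was upregulated 1.65-fold (0.72 ± 0.12, adjusted P = 0.020), a call lost in 5 omissions (adjusted P = 0.085 without mouse 17).

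Arg1, the arginase that splits arginine into ornithine and urea and is made by some macrophages among other cells, had 3.62, 3.68, 3.23, 3.79 and 1.71 in vehicle mice and 4.44, 5.16, 5.24, 4.87 and 5.30 in high-dose mice. All high-dose mice were above all vehicle mice, and vehicle mouse 5 was far below the other 4. The gene was upregulated 3.47-fold (1.79 ± 0.34, adjusted P = 0.039), and its call was lost in 6 of 10 omissions (adjusted P = 0.13 without mouse 17). The DEG of the lysosomal cathepsin list was Ctsh, a cysteine protease, with 3.26, 2.25, 2.17, 2.47 and 2.03 in vehicle mice and 3.83, 3.43, 3.81, 3.86 and 3.58 in high-dose mice. It was upregulated 2.41-fold (1.27 ± 0.21, adjusted P = 0.017), with adjusted P = 0.068 without mouse 2. Ctss, the protease that trims the invariant chain of MHC class II, was 1.02 higher with no overlap (unadjusted P = 0.00057, adjusted P = 0.16).

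All 11 MHC class II genes had a higher mean at the high dose, 4 of them at an unadjusted P under 0.05 and without overlap, but the median change was 0.11 and none was a DEG. Of all genes 4.78% were higher at that level, 1.33% lay above all vehicle mice without overlap and 0.102% were DEGs. Cd74, the invariant chain, had 0.45, -0.55, -0.50, 0.37 and -0.02 in vehicle mice and 1.31, 0.91, 1.36, 1.86 and 0.90 in high-dose mice (difference 1.32 ± 0.36, unadjusted P = 0.0015, adjusted P = 0.21). H2-Aa, an alpha chain, was 1.14 higher, and the peptide-loading genes H2-DMb1 and H2-DMa were 1.01 and 0.81 higher. Ciita, the master activator of class II genes, differed by 0.10 and was well above background on no vehicle array and 2 high-dose arrays. The class I antigen processing list had a median of 0.47 and 7 of 15 genes higher at an unadjusted P under 0.05, none a DEG. They included the immunoproteasome subunits Psmb10 (0.46) and Psmb9 (1.24), the transporter Tap2 (0.57) and the activator Nlrc5 (0.98).

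Of 29 interferon-stimulated genes 7 were higher at that level with a median of 0.44, led by the signaling factor Irf9 (0.60, unadjusted P = 0.0093) and the GTPase Gbp3 (0.99, unadjusted P = 0.022). The chemokine with the largest difference was Ccl8, a monocyte attractant. It had 1.01, 0.34, 1.42, 2.28 and 1.05 in vehicle mice and 2.92, 2.85, 3.99, 3.92 and 4.25 in high-dose mice. The groups did not overlap and the difference was 2.37 ± 0.64, or 5.15-fold (unadjusted P = 0.0014, adjusted P = 0.21). At the low dose 1 mouse reached 5.38, above every high-dose mouse. The eosinophil attractant Ccl11 was 0.82 higher (unadjusted P = 0.00027). Lymphocyte lists held no DEG, from which nothing is read at a share of 0.102% over all genes. None of 22 T and NK cell genes was higher at an unadjusted P under 0.05 and 1 was lower. Over all genes the shares were 4.78% and 4.18%. The medians were -0.01 for that list and -0.11 for 14 B cell and plasma cell genes. Only 10 of the 22 and 8 of the 14 were well above background throughout a group of mice. The others were dim, so a lack of difference in them is not read as no change. Cd3e differed by -0.30 and Cd79b by -0.26, and with median centring by -0.01 and 0.02. The dendritic cell integrin Itgax was 0.58 higher (unadjusted P = 0.0027), in a list of 12 with a median of 0.04.

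**Figure D3:**
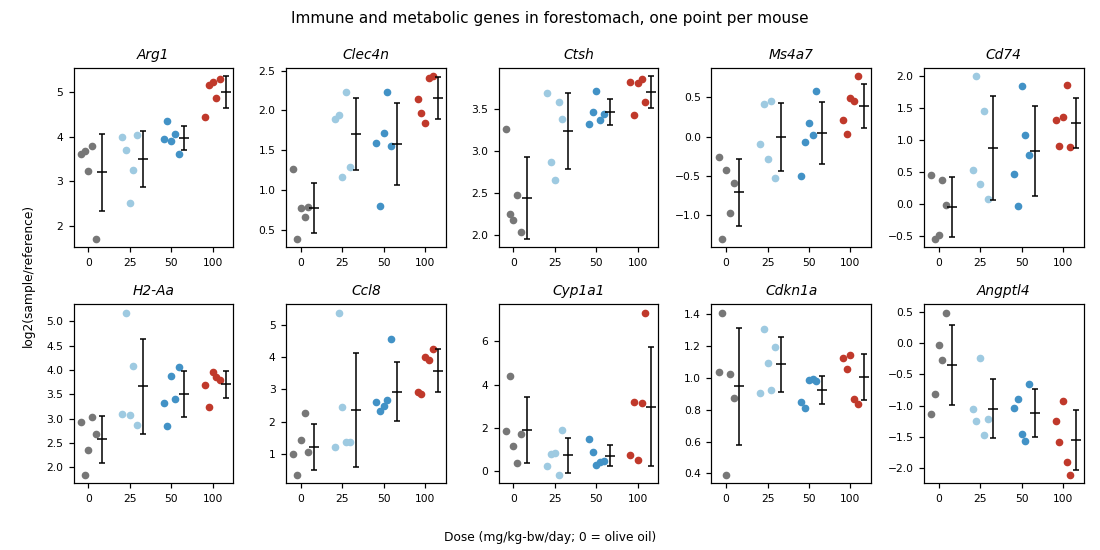
Log2 ratios (vertical axis) of 10 immune and metabolic genes in forestomach by dose (horizontal axis, mg/kg-bw/day), one point per mouse, mean and SD to the right. Arg1, Clec4n, Ctsh, Cd74 and Ccl8 lie higher in all 5 high-dose than in all 5 vehicle mice, Cdkn1a overlaps throughout, and Cyp1a1 reaches 7.33 in a single high-dose mouse.

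Targets of AhR were uneven between mice. None of the 8 AhR targets and 25 p53 targets was a DEG, and at a share of 0.102% over all genes their absence does not set these lists apart. Cyp1a1, the classic AhR-induced monooxygenase, had 1.85, 4.39, 1.15, 0.36 and 1.73 in vehicle mice and 0.74, 3.18, 0.49, 3.13 and 7.33 in high-dose mice. The groups overlapped, only mouse 20 lay above all vehicle mice, and the difference of 1.08 ± 0.94 (adjusted P = 0.81) became -0.01 without mouse 20. Cyp1b1 and the receptor's repressor Ahrr were 0.65 and 0.44 higher (unadjusted P = 0.044 and 0.033), also with their highest values in mouse 20 (1.96 and 1.41), and without that mouse they were 0.33 and 0.27 higher. Cyp1a2 was not well above background on any of the 10 arrays, and Tiparp differed by 0.17. Mouse 20 was also the high-dose array low in glandular stomach genes and high in the adipocyte gene Cfd, and the part of these in its Cyp1a1 value was not tested.

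Of 25 p53 targets 7 were higher and 1 lower at an unadjusted P under 0.05, with a median of 0.11. Cdkn1a, the cell cycle inhibitor p21, differed by 0.06, and Gdf15, a stress cytokine, by 0.26. Mdm2 and Bax were 0.17 and 0.26 higher. The largest of the named differences were those of Trp53inp1 (0.84, unadjusted P = 0.00061) and of the apoptosis gene Bbc3, which did not overlap between groups (0.54, unadjusted P = 0.00023, adjusted P = 0.11). None of 32 cell cycle genes passed an unadjusted P of 0.05 in either direction.

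Several DEGs were metabolic enzymes. Ces2f, a carboxylesterase, had 1.03, 1.06, 0.50, 0.88 and 0.51 in vehicle mice and 2.05, 2.25, 2.06, 1.91 and 2.55 in high-dose mice. It was upregulated 2.59-fold without overlap (1.37 ± 0.15), shared the lowest adjusted P of all genes (7.98e-04), and kept its call with any 1 mouse left out. It was well above background on 3 of the 5 vehicle arrays. Npl, an aldolase that splits sialic acid, was upregulated 2.28-fold (1.19 ± 0.22, adjusted P = 0.034), with 0.65, 0.84, 0.65, 1.05 and 1.07 in vehicle mice and 1.68, 2.04, 2.37, 1.56 and 2.56 in high-dose mice. Its call was lost in 8 of 10 omissions (adjusted P = 0.12 without mouse 18). Dcxr, a dicarbonyl and xylulose reductase, was upregulated 1.81-fold with 1 high-dose mouse just inside the vehicle range (0.86 ± 0.15, adjusted P = 0.021), and Aldh4a1, a mitochondrial enzyme of proline breakdown, 1.56-fold (0.64 ± 0.12, adjusted P = 0.042). The call of Dcxr was lost in 6 of 10 omissions and that of Aldh4a1 in 8, with the highest adjusted P of 0.082 and 0.14, both without mouse 2. In the conjugation list the glutathione transferases Gstm2 and Gstm1 were 0.47 and 0.65 higher, and only Gstm2 did not overlap (unadjusted P = 1.3e-04, adjusted P = 0.082).

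Among lipid genes more were lower than higher. Of 25 fatty acid oxidation genes and PPAR targets 6 were lower and none higher at an unadjusted P under 0.05, of 14 fatty acid synthesis genes 4 and none, and of 22 sterol synthesis genes 3 and none. The medians were -0.18, -0.30 and -0.17, and with median centring they became 0.14, -0.02 and 0.06, so that the first and last turned sign. No gene of these lists was a DEG, from which nothing is read at a share of 0.102% over all genes. Angptl4, a fasting-induced inhibitor of lipoprotein lipase, had -1.13, -0.81, -0.04, -0.28 and 0.49 in vehicle mice and -1.25, -1.59, -0.92, -1.91 and -2.11 in high-dose mice. Of the high-dose mice 4 were below all vehicle mice, and the difference was -1.20 ± 0.29 (unadjusted P = 0.00055, adjusted P = 0.16). The lipid droplet protein Plin2 was 0.84 lower, the dehydrogenase Acadm 0.44, the elongase Elovl6 0.75, the sterol gene Idi1 0.45 and the carbohydrate-response factor Mlxipl 0.75. Vehicle mice 3 and 5 carried the most adipocyte RNA. Over the 9 adipocyte genes the list mean was 0.76 to 4.63 in vehicle mice and 1.11 to 2.28 in high-dose mice, and without mice 3, 5 and 20 the medians of the lipid lists were -0.07, -0.18 and -0.30. Ddah1, which degrades methylarginines, was 0.85 lower without overlap (unadjusted P = 7.9e-05, adjusted P = 0.060), and the glucose transporter Slc2a1 was 0.48 higher (unadjusted P = 0.0010).

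Other cell types of the wall also differed in small steps. Mmrn2, an extracellular matrix protein of endothelium, was the DEG of the 15 endothelial genes. It had 3.33, 3.64, 3.54, 3.61 and 3.89 in vehicle mice and 4.24, 4.73, 4.55, 4.86 and 4.93 in high-dose mice, a 2.09-fold increase without overlap (1.06 ± 0.14, adjusted P = 0.0037). The median of the list was 0.24, and the endothelial genes Vwf and Tie1 were 0.66 and 0.37 higher. Of 12 smooth muscle genes 5 were lower at an unadjusted P under 0.05, with a median of -0.25 that became 0.05 with median centring. Myh11 and Smtn were 0.38 and 0.68 lower, whereas Acta2 and Cnn1 differed by -0.32 and -0.24 and by 0.07 and 0.12 with median centring. The part of these cell types in the macrophage and lipid results was not tested.

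The remaining DEGs shared no list. Pgbd5, a domesticated transposase gene, had 1.20, 1.37, 1.06, 1.56 and 1.14 in vehicle mice and 2.17, 3.13, 3.00, 3.16 and 3.51 in high-dose mice, a 3.32-fold increase (1.73 ± 0.23, adjusted P = 0.0035). Gm21944, a gene known by its model name, rose 2.79-fold (1.48 ± 0.17, adjusted P = 7.98e-04; well above background on 1 vehicle array and all 5 high-dose arrays), from 0.24, 0.28, 0.30, -0.06 and -0.10 to 1.35, 1.49, 1.30, 1.59 and 2.34. Susd4, a complement regulator, had 1.04, 1.44, 1.35, 1.32 and 1.61 in vehicle mice and 2.42, 2.55, 2.52, 2.81 and 2.78 in high-dose mice (2.40-fold, adjusted P = 0.0077). None of these 3 genes lost its call with 1 mouse left out. Their groups did not overlap, which was a condition for giving the values of every mouse. A transcript with no symbol rose 2.71-fold, from 1.09, 1.72, 1.32, 1.47 and 1.42 to 2.26, 3.23, 2.95, 2.81 and 2.97. The phosphatase subunit Ppp2r2c and the growth factor Fgf9 were each upregulated 2.25-fold. Grip1, a synaptic scaffold protein (1.90-fold), Pappa, a protease of insulin-like growth factor binding proteins (1.84-fold), Fam162a (1.66-fold), Ccbe1, a matrix protein of lymphatic growth (1.64-fold), Sgsm1 (1.56-fold) and the tyrosine kinase Ptk2b (1.53-fold) completed the upregulated genes with a symbol. Leaving out 1 mouse raised the adjusted P to at most 0.14 without mouse 2 for Grip1, 0.099 without mouse 18 for Fam162a, 0.14 without mouse 18 for Ccbe1 and 0.076 without mouse 2 for Ptk2b, and the call was lost in 10, 6, 9 and 3 of the 10 omissions in that order. The probes of some of these genes disagreed. A second Ptk2b probe, well above background on all 20 forestomach arrays, differed by 0.01, a second such probe of Sgsm1 by 0.27, and the dim other probes of Ccbe1 by 0.13 and -0.22. Besides Arntl, the downregulated DEGs were the GABA receptor subunit Gabbr1 (-0.66 ± 0.12, adjusted P = 0.039), whose groups overlapped at 1 mouse and whose call was lost in 9 of 10 omissions (adjusted P = 0.14 without mouse 2) and with median centring (adjusted P = 0.092), and a transcript with no symbol that had 0.59, 0.04, 0.08, 0.23 and -0.10 in vehicle mice and -0.21, -0.65, -0.62, -0.55 and -0.48 in high-dose mice, a call lost in 8 of 10 omissions and with median centring (adjusted P = 0.16).

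**Figure D4:**
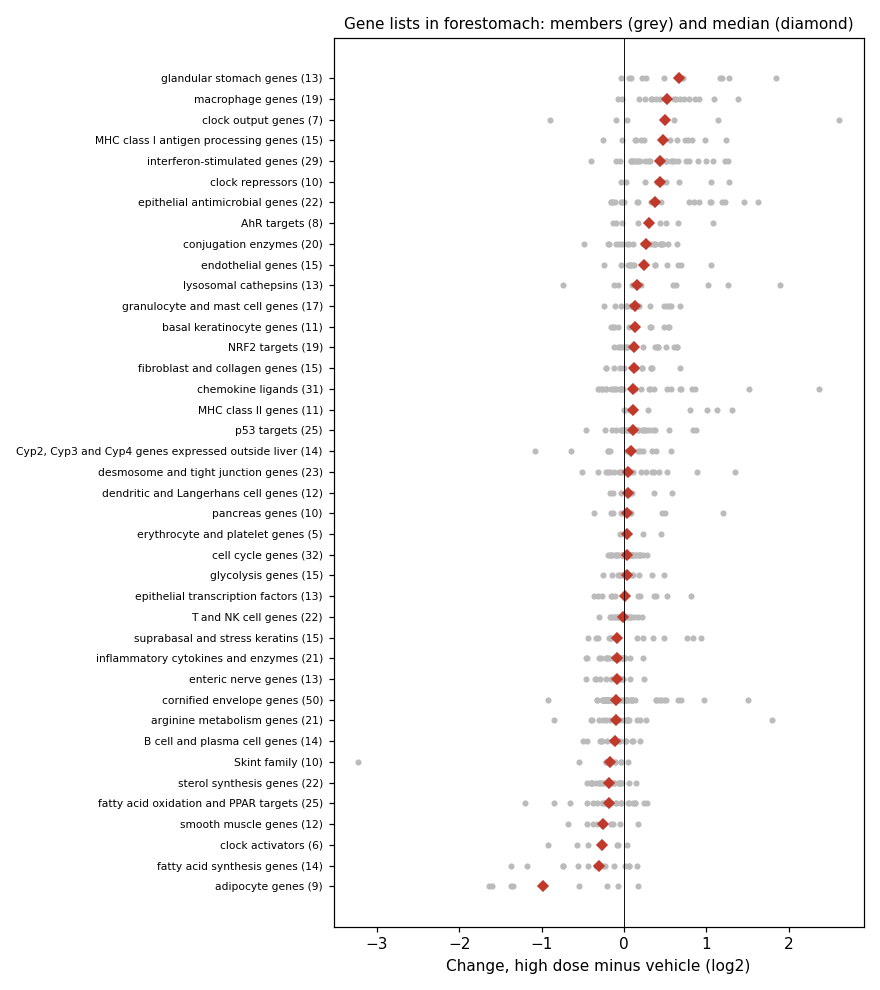
Change from vehicle to high dose (log2, horizontal axis) for each member (grey points) of the 40 gene lists (vertical axis, number measured in brackets), with the list median as a diamond. The medians of the macrophage (0.53), clock repressor (0.44) and antimicrobial (0.38) lists lie right of 0, as does that of the glandular stomach genes (0.67), and the adipocyte median (-0.99) lies farthest left, in a list whose vehicle mice ranged from 0.76 to 4.63.

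The same dose was set against lung, a tissue away from the site of contact, by testing the difference of the high-dose changes in the 2 tissues. It passed both thresholds for 381 genes, or 1.03% of those measured, and for 21 of the 38 forestomach DEGs. The 38 were picked by their forestomach change, which is part of this difference, so a high share among them was built in. Fitted with mouse as a replicate block, since same-numbered lungs and forestomachs are from the same animals, the count was 413, with 21 of the forestomach DEGs again among them. Leaving out the lung array of low-dose mouse 6, a choice made after the data were seen, gave 388. Fewer of the forestomach DEGs passed with median centring (9) and with 1 mouse left out in both tissues (15 to 20). For the clock genes among the DEGs the tissue difference did not pass. Dbp changed by 2.87 in lung, Nr1d2 by 0.94, Tef by 0.91 and Arntl by -1.75, and the differences from forestomach had adjusted P values of 0.95, 0.79, 0.88 and 0.16, the last becoming 0.020 with the replicate block. The tissue difference for Dbp was -0.25. Both tissues of a mouse share its hour of killing, so the part of that hour could not be tested with lung either. Per2 differed, with 0.40 in forestomach and 1.16 in lung (adjusted P = 0.049, and 0.066 with the block). Its forestomach value is limited by vehicle arrays on which it was not well above background.

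The antimicrobial genes S100a7a and Defb3, the macrophage gene Clec4n, and Ctsh and Ces2f were among those with the larger difference in forestomach. All are forestomach DEGs, so they were picked by a change that enters this comparison. In lung S100a7a differed from vehicle by -0.09, Defb3 by 0.06, Clec4n by 0.09, Ctsh by 0.05 and Ces2f by 0.08, and the tissue difference was 1.15, 0.99, 1.29, 1.22 and 1.29 (adjusted P of at most 0.028 for each). For Arg1 and Defb14 it was 1.56 and 1.12 and did not pass (adjusted P = 0.086 and 0.43). Nor did it pass for the macrophage gene Aif1 (0.92, adjusted P = 0.15), Ccl8 (2.43, adjusted P = 0.16) or Cd74 (1.12, adjusted P = 0.23). With the replicate block the adjusted P of these genes was 0.031, 0.016 and 0.085. Several named AhR and p53 targets ran the other way, but not all. The p53 target Bbc3 changed by 0.54 in forestomach and 0.26 in lung (adjusted P of the difference 0.60). Cyp1b1 differed from vehicle by 4.44 ± 0.68 in lung against 0.65 ± 0.30 in forestomach (adjusted P of the difference 0.0091), Ahrr by 3.14 against 0.44 (9.4e-04), Cdkn1a by 2.66 against 0.06 (1.5e-07), Gdf15 by 3.1 against 0.26 (2e-06) and Bax by 1.44 against 0.26 (7.7e-05). The replicate block, which takes account of the shared animals, gave an adjusted P of 0.0011 for Ahrr, 0.0010 for Cdkn1a and 0.0038 for Bax. For Cyp1a1 the lung change was 4.47 ± 1.13, and the difference of -3.39 did not pass (adjusted P = 0.43). Ddah1 differed from vehicle in opposite directions, by -0.85 in forestomach and 1.07 in lung (7.5e-06). Mmrn2 was upregulated in both tissues, by 1.06 and 2.75, and more so in lung (adjusted P = 0.0022).

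**Figure D5:**
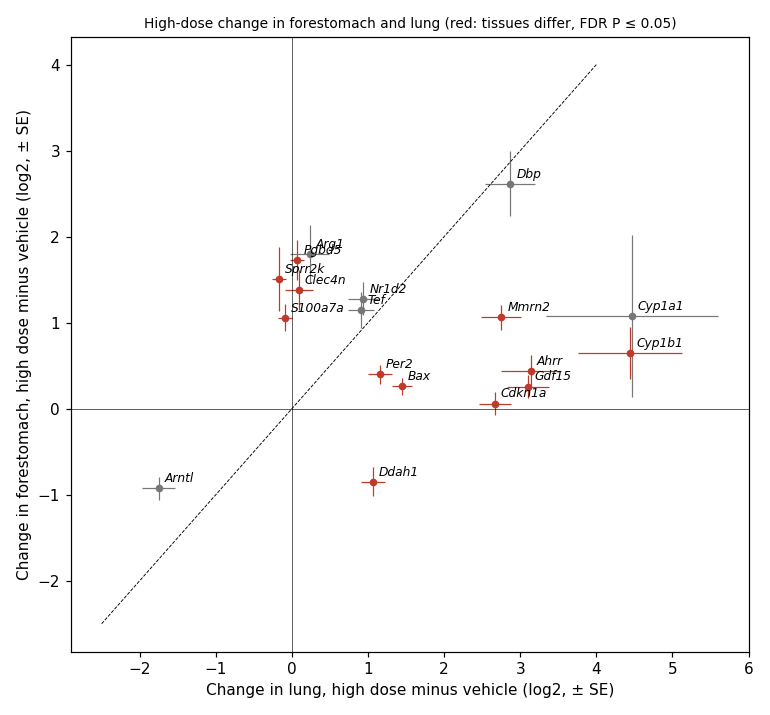
Change from vehicle to high dose (log2, ± SE) in forestomach (vertical axis) against that in lung (horizontal axis) for named genes, with the line of equal change dashed and red for genes whose tissues differ at adjusted P of at most 0.05 and 1.5-fold. Dbp, Nr1d2, Tef and Arntl lie in grey on the same side of 0 in both tissues, S100a7a, Clec4n and Pgbd5 lie near 0 in lung, and Cdkn1a (0.06), Gdf15 (0.26) and Ahrr (0.44) lie lower in forestomach than in lung.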

How the data were processed

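Total RNA of each forestomach or lung was labelled with Cy5 and hybridized with a Cy3-labelled common reference to 2-color Agilent mouse arrays. The deposited scanner files hold median spot intensity and background per channel, written by Feature Extraction 10.7.3.1. The authors' own values are deposited as log2 ratios, made by LOWESS without background correction, and served as an alternative. Arrays carry no read depth, so the number of mice (5 per group) limits precision. Replicates are separate mice. Median intensities were normalized within each array by loess without background correction in R 4.3.3 with limma 3.58.1, control and non-uniform spots had weight 0, and replicate spots of a probe were averaged. Of 55681 probes 26413 had a gene symbol through RefSeq, giving 37163 genes and transcripts. All 20 forestomach arrays of the 4 dose groups entered one limma fit without covariates, with Benjamini-Hochberg adjustment over all probes. A gene was called when any probe passed, and was otherwise represented by its brightest probe. For a group whose arrays all left a probe dim, its limit was each array's lowest signal among probes called well above background, in the Cy5 channel after quantile scaling of mean intensity, as on 2-color arrays without dye swaps open to dye bias. Normexp with an offset of 50 used median signals, since the mean signal was not used here. The 40 gene lists, the named genes and the comparison were chosen with earlier results of these data known. Named were called genes, up to 4 members per list with the smallest unadjusted P, and a fixed set of 27 genes whatever their values. Values of every mouse were given for the 12 largest increases that did not overlap between groups. No comparison columns of the authors were used. The fit was tested on simulated data with 200 changed probes.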

Additional observations from a re-analysis of the deposited data

Results flagged for a closer look

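In 292 groups of 5 values (genes and list means, in vehicle and high-dose mice) 27 held a mouse apart from the other 4 by Dixon's test at its 95% limit, which chance gives in about 1 group of 20. High-dose mouse 20 stood apart most often. It was lowest for Gkn3 (0.0802) and Pgc (0.186) and for the means of the glandular stomach (0.439), lysosomal cathepsin (0.433) and extrahepatic Cyp2, Cyp3 and Cyp4 (2.00) lists. It was highest for Cfd (5.58), Krt13 (5.43), Fgf9 (2.5), Gm21944 (2.34) and the means of the adipocyte (2.28) and fatty acid synthesis (0.72) lists. High-dose mouse 16 lay nearest the vehicle mice for the clock genes Arntl (0.283), Nr1d1 (0.358), Tef (-0.0268) and Cry2 (0.0277), and was highest for Skint3 (4.19) and the Skint family mean (0.797). High-dose mouse 19 was highest for Ptk2b (0.899) and Tap2 (-0.489), and mouse 18 for Ccl11 (3.62). Among vehicle mice, mouse 5 was lowest for Arg1 (1.71) and Slc2a1 (-2.02) and highest for Mlxipl (2.03), mouse 1 was lowest for Skint3 (0.0199), mouse 2 for Ctss (-2.51), mouse 3 for Gstm2 (1.02) and mouse 4 for Mdm2 (-1.04).

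The high-dose change differed between forestomach and lung, by the tested difference of the changes, for 25 named genes. Those that are forestomach DEGs were picked by a change that enters this difference. Forestomach minus lung was higher for Sprr2k (1.68), Pgbd5 (1.66), Gm21944 (1.45), Ctss (1.31), Ppp2r2c (1.31), Clec4n (1.29), Ces2f (1.29), Ctsh (1.22), S100a7a (1.15), Npl (1.10), Susd4 (1.03), Defb3 (0.99), Pappa (0.85), Sgsm1 (0.81), Dcxr (0.75) and Fam162a (0.64). With mouse as a replicate block the difference of Dcxr no longer passed (adjusted P = 0.061). Forestomach minus lung was lower for Cyp1b1 (-3.79), Gdf15 (-2.84), Ahrr (-2.70), Cdkn1a (-2.60), Ddah1 (-1.92), Mmrn2 (-1.69), Bax (-1.18), Gabbr1 (-0.87) and Per2 (-0.76), the last not passing with the block (adjusted P = 0.066). Per2 was also not well above background on any vehicle array of forestomach.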

How the results depend on the processing

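The number of DEGs in forestomach at the high dose was 38, and it was 34 to 56 with quantile normalization after loess, normexp correction, a filter for probes well above background, slide as a block, only the 10 compared arrays, the authors' log ratios or an Fs-type test with shuffled residuals. The quantile step leaves log ratios as they are, so its 38 are the same by construction. Only the fit of the 10 compared arrays (47 DEGs, 26 shared with the 38), the authors' values (34, 33 shared) and median centring lost calls, while slide as a block gave 54 with 12 of them lower. Median centring in place of loess gave 139 DEGs, all higher, 28 of them shared, and moved the median of all genes to 0.08. Leaving out 1 mouse gave 19 to 43, the fewest without vehicle mouse 2 (19) and high-dose mouse 19 (20), with 23 each without high-dose mice 17 and 20. Of the 38 DEGs 18 kept their call in every omission. The next omissions were added after the data were seen. Without vehicle mice 3 and 5 and high-dose mouse 20, rich in adipocyte genes, 6 DEGs passed, 5 of them shared, and without vehicle mice 2 and 5 and high-dose mouse 20, poor in glandular stomach genes, 6 passed, 6 of them shared. The change of Dbp was then 2.77 and 2.65 and that of Arntl -0.90 and -0.86, and neither gene passed.

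The number of genes whose change differed between forestomach and lung was 381, 413 with mouse as a replicate block, 185 with median centring and 224 to 364 with 1 mouse left out in both tissues, the fewest without mouse 17. With median centring the sign turned for Krt5 (0.28), Krt14 (0.19), Krt13 (0.27), Krt4 (0.0116), Krt23 (0.0035), Lce1a1 (0.0405), Acta2 (0.0665), Cnn1 (0.12) and Cd79b (0.0245). Without mice 3, 5 and 20 it turned for Cyp1a1 (-0.31), Cdkn1a (-0.11), Tiparp (-0.074), Cry1 (-0.0546), Cfd (0.19) and Cyp1a2 (0.0619), and Cyp1a2 was 0.0669 without mice 2, 5 and 20. With 1 mouse left out Cdkn1a ranged from -0.0800 to 0.176, Cry1 from -0.0231 to 0.0946, Cyp1a1 from -0.0102 to 1.70, Cyp1a2 from -0.071 to 0.0276 and the brightest Trp73 probe from -0.28 to 0.0686. None of these genes was a DEG on the probe named. The cause of these shifts was not tested.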
